A study of Mus musculus with 3 samples.

Results

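The genes of the major histocompatibility complex (MHC) and of peptide loading were followed across 3 mouse tumour cell lines. The members were every gene in the deposited tables whose symbol begins with H2- (28 genes), together with 18 named genes for the class I light chain, peptide transport, the inducible proteasome, class II presentation and the regulators of both classes. They came to 46 of 15529 genes that carry a symbol in at least 1 table. The lines were B16-F1, a skin melanoma from C57BL/6J mice grown in DMEM, Cloudman S91, a skin melanoma from DBA mice grown in DMEM, and 4T1, a mammary carcinoma from BALB/cfC3H mice grown in RPMI. All media held 10% fetal bovine serum, and no treatment is given for any line. There was 1 library per line, so the differences below are between single libraries, without a replicate check, and their intervals cover counting error alone. 4T1 differs from the melanoma lines in tumour type, strain and medium at once, and these cannot be told apart. Fewer cells that use a gene and less RNA per cell cannot be told apart either.

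Class I molecules pair a polymorphic heavy chain with beta-2 microglobulin and show peptides from inside the cell to CD8 T cells and natural killer cells. The proteasome cuts those peptides, the TAP transporter carries them into the endoplasmic reticulum, and tapasin and related proteins load them. Interferon-gamma is known to raise the whole route, partly through NLRC5, and it swaps 3 catalytic proteasome subunits for inducible ones. Class II molecules show peptides from endosomes to CD4 T cells, are made mainly by professional antigen presenting cells, and depend on CIITA. B16 melanoma is a widely used tumour model known for low class I at its surface that interferon-gamma restores.

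To show the letters that class I promoters share, the windows of 5 members on which the results turn come first, from RefSeq on GRCm38.p6, 5′ to 3′ on the gene's own strand, from 250 bases before the annotated start to 50 after it. They lie at chr17:34000298-34000597 on the minus strand for H2-K1 (1 of its 2 annotated starts), chr17:35262844-35263143 on the plus strand for H2-D1, chr17:35379367-35379666 on the plus strand for H2-Q4, chr2:122147437-122147736 on the plus strand for B2m and chr17:34187306-34187605 on the plus strand for Tap1. Capitals mark matches, on either strand, to an interferon-stimulated response element (ISRE) pattern (GAAA, any 2 bases, GAAA), a kappaB pattern (GGGA, any base, TT, any base, CC) and the letters CCAAT.
H2-K1: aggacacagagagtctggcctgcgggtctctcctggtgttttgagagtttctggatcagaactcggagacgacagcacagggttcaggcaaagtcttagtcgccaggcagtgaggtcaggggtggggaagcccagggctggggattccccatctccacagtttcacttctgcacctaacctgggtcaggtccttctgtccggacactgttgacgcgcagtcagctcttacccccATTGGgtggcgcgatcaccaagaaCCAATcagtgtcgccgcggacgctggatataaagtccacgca
H2-D1: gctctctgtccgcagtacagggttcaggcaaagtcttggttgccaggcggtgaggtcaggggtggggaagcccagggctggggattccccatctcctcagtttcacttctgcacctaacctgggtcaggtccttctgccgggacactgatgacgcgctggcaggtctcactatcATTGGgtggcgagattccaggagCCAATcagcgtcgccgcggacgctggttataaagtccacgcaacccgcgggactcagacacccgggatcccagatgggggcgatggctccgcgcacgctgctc
H2-Q4: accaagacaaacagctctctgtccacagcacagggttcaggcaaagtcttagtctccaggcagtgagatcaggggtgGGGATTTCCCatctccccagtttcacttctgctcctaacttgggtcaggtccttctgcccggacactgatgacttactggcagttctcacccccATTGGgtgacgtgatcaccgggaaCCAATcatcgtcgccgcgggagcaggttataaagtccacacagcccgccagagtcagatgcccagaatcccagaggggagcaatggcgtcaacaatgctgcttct
B2m: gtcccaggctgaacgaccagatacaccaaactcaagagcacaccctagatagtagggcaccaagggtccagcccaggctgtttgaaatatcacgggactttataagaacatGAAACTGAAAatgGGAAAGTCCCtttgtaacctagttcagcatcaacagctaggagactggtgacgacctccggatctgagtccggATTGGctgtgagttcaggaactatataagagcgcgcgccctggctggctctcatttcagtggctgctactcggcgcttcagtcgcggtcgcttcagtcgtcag
Tap1: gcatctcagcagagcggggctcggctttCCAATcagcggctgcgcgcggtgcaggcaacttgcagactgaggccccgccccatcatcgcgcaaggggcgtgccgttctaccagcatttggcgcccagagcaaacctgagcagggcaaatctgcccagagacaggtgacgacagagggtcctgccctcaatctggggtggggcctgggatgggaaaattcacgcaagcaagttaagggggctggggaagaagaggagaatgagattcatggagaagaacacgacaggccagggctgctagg

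A CCAAT match was present in 12 of the 14 class I heavy chain members with a window (85.7%) and in 23 of all 31 members with a window (74.2%), against 37.4% of all 32817 windows of the same length. The printed windows of H2-K1, H2-D1 and H2-Q4 are much alike, so class I members are not separate observations in these shares. For each pattern only a single window per member was counted, that of lowest position. The set of all windows was not limited in this way. The other window of H2-DMa held a CCAAT match that is not in these counts. H2-D1 held it at -76 and -53 and H2-Q4 at -79 and -55, counted from the annotated start to the first base of the match. The ISRE pattern was found in 5 of the 31 members (16.1%; 3.43% of all windows), namely B2m, Erap1, Psme1, H2-T22 and H2-T23. The kappaB pattern was found in B2m and H2-Q4, or 6.45% of members and 1.201% of all windows. B2m carried the ISRE pattern at -139 and the kappaB pattern at -126. The Tap1 window overlaps that of Psmb9 by 275 bases on the opposite strand, so the printed Tap1 sequence also serves that inducible proteasome gene. These are matches of letters only, in C57BL/6J sequence. The ISRE and kappaB patterns are strict, and a window without a match may still hold a variant of such a site. The letters ggggattcccc in H2-K1 and H2-D1, and agtttcacttct in H2-K1, H2-D1 and H2-Q4, do not match them. Whether such letters act as sites was not tested. CRE letters (TGACG, in 35.5% of members and 20.8% of all windows) and a GAS pattern (TTC, any 3 bases, GAA, in 9.68% and 8.29%) were also counted and are not in capitals.

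Levels below are FPKM, the deposited reads per kilobase of transcript scaled to the library total, and genes missing from a table were taken as 0. A member was compared in a pair of lines where it reached FPKM 1 in at least 1 of them, and was called different where log2(FPKM + 1) differed by at least 2, which is 4-fold on that scale and more than 4-fold for low genes. Library totals in expected counts were 9098072 for B16-F1, then 7412840 for Cloudman S91, then 8968897 for 4T1. The tables listed 31, 36 and 42 of the 46 members in that order, and 18, 28 and 36 members reached FPKM 1. The members took 0.0816%, 0.0992% and 0.465% of all counts. The labelled tumour types were checked first: 5 melanocyte markers summed to FPKM 9974, 8784 and 0.11, and 5 epithelial markers to 0.51, 2.51 and 1710.

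4T1 was the high line for most of the set. Between B16-F1 and 4T1, 26 of 36 members compared were higher in 4T1 (72.2%), where 7.43% of all genes were, and none was higher in B16-F1, where 6.31% of all genes were. The members' median difference, B16-F1 minus 4T1, was -3.13 in log2(FPKM + 1) and that of all genes 0.03. Between Cloudman S91 and 4T1, 24 of 37 were higher in 4T1 (64.9%; 8.01% of all genes) and 1 was higher in Cloudman S91 (7.47% of all genes), with a median of -2.45 against -0.14 for all genes. These comparisons share the 4T1 library. Between the melanoma lines the members were closer: 3 of 28 were higher in Cloudman S91 (10.7%; 3.19% of all genes), none was higher in B16-F1 (2.33% of all genes), and the median was -0.64 against 0.14. The 3 were Tap2, H2-M11 and H2-L, and H2-L is a gene that the strain of B16-F1 does not carry.

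**Figure D1:**
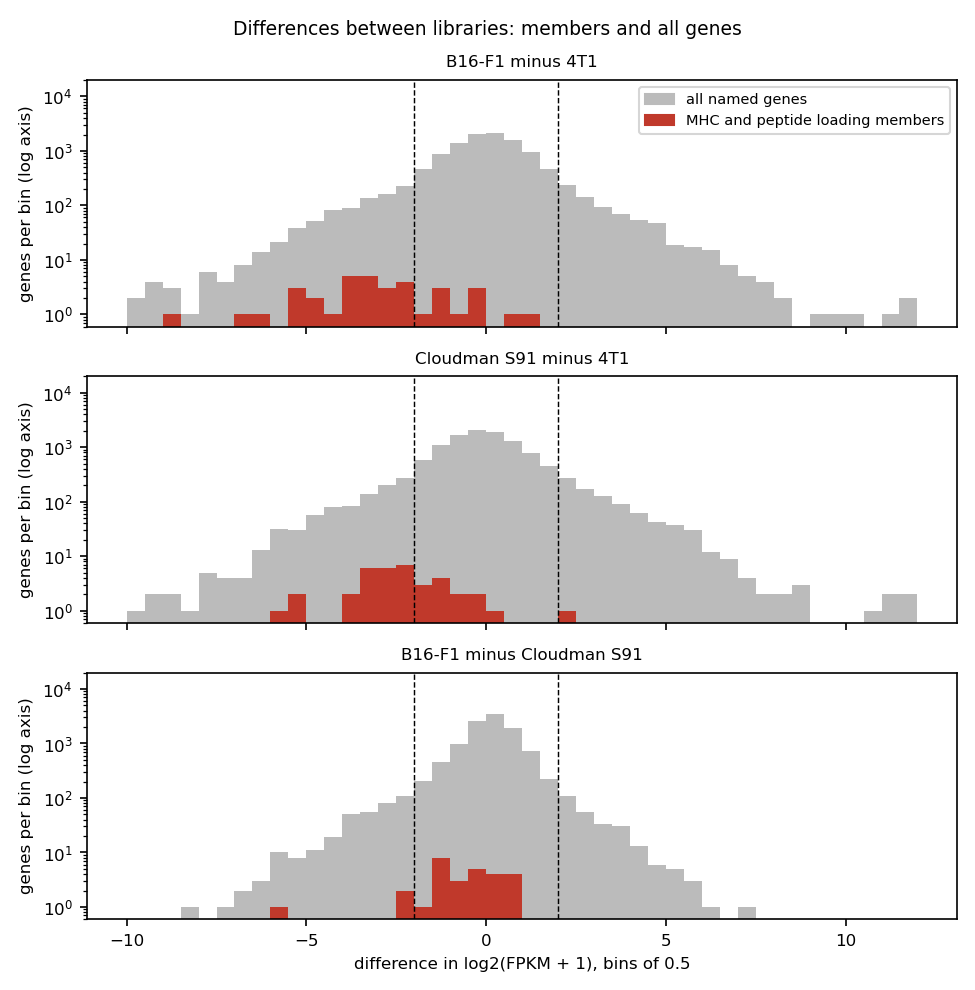
Differences in log2(FPKM + 1) for each pair of lines, in bins of 0.5, with all named genes in grey and the members in red; the vertical axis is logarithmic and dashed lines mark a difference of 2 in each direction. In both upper panels most members lie left of the lower dashed line (26 of 36 and 24 of 37), toward 4T1.

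Of the 37 members at FPKM 1 or more in any line, 34 were highest in 4T1, against 41.3% of all genes (4934 of 11944). As single rows, H2-T22 and Psme3 were highest in B16-F1, and H2-M11 in Cloudman S91. Of the 34, 23 were lowest in B16-F1, 8 were lowest in Cloudman S91, and 3 (H2-Q6, H2-Q9 and H2-Ab1) were unlisted in both. Another 9 members stayed under FPKM 1 in every line. These were H2-T10, H2-T24, H2-Bl, H2-M5, H2-M10.2, Ciita, H2-Eb1, H2-Oa and H2-DMb1, and the highest value among them was 0.92, for H2-T10 in Cloudman S91.

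**Figure D2:**
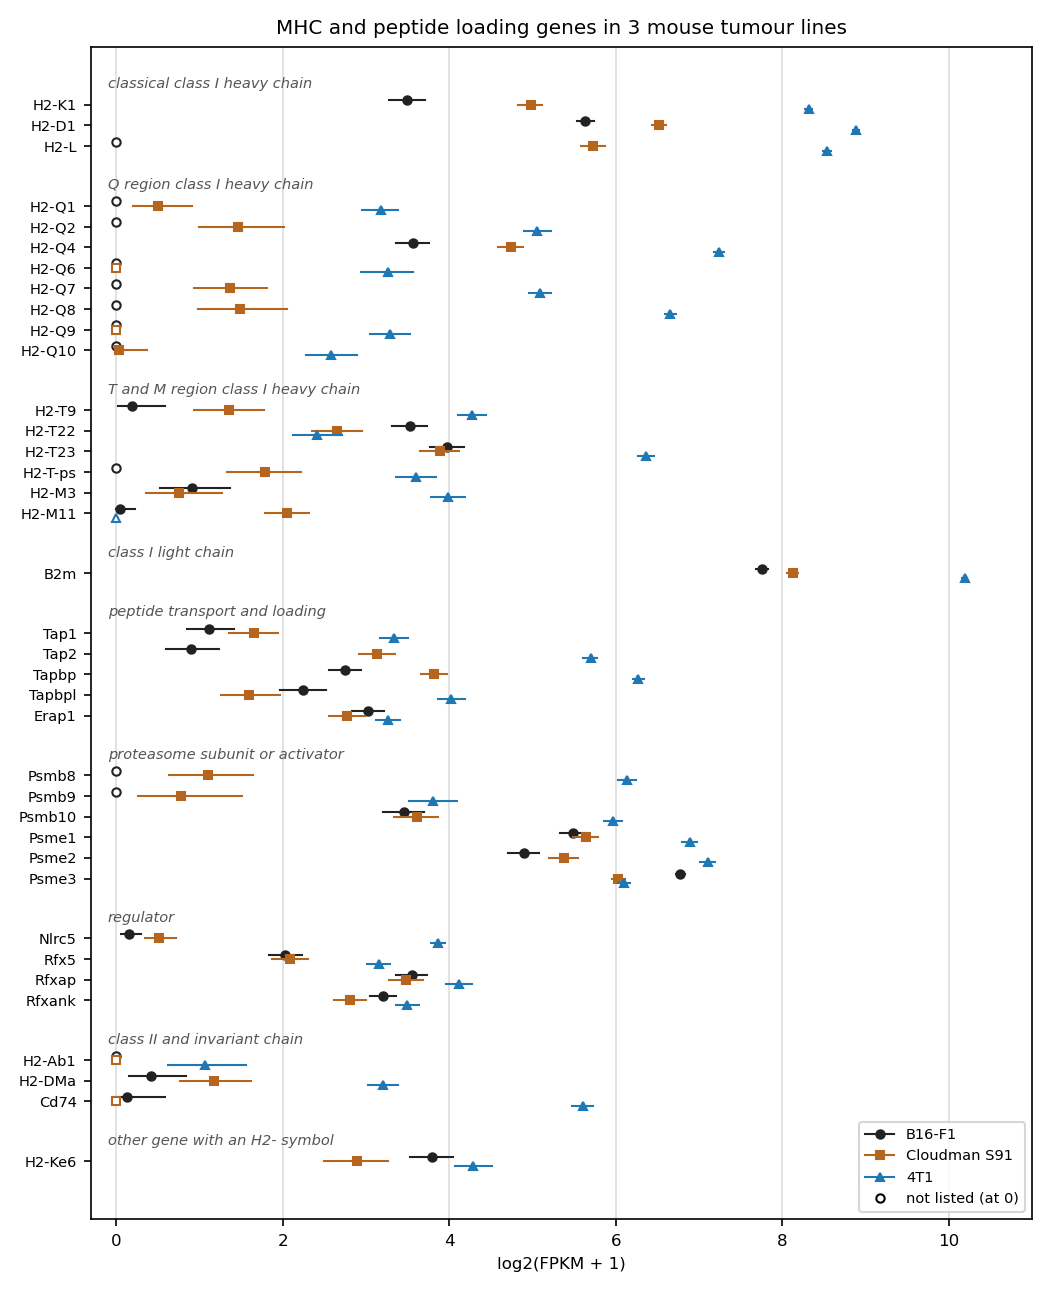
Levels of the 37 members at FPKM 1 or more in any line, as log2(FPKM + 1), grouped by role, with exact 95% Poisson intervals for counting error; open symbols mark genes missing from that table. The 4T1 triangles lie to the right for 34 members, with H2-T22, H2-M11 and Psme3 as the others.

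The classical heavy chains, which present most peptide to CD8 T cells, were lowest in B16-F1 and highest in 4T1. H2-K1 (chr17:33996012-34000619) stood at FPKM 10.3 in B16-F1 (95% Poisson interval 8.71 to 12.1), 30.5 in Cloudman S91 (27.4 to 33.8) and 318 in 4T1 (309 to 328). The intervals did not overlap, and 4T1 was 31.0-fold above B16-F1 (26.3 to 36.7, from counting error) and 10.4-fold above Cloudman S91 (9.39 to 11.7). H2-D1 (chr17:35263094-35267497) was the most abundant heavy chain member in every line, at 48.7, 90.8 and 471. Its steps were smaller, with 4T1 9.68-fold above B16-F1 (8.98 to 10.5) and 5.19-fold above Cloudman S91 (4.88 to 5.54). The level of H2-K1 was therefore 0.211 of that of H2-D1 in B16-F1, against 0.336 in Cloudman S91 and 0.675 in 4T1.

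H2-L, a classical heavy chain of haplotype d mice that strains of haplotype b do not carry, was not listed in B16-F1, whose strain is of haplotype b. It stood at 52.0 in Cloudman S91 and 370 in 4T1, which is from a haplotype d strain, a 7.12-fold step (6.41 to 7.92). By counts scaled to the library total, with 3 counts as the limit for B16-F1, H2-L was at least 1132-fold higher in 4T1 and at least 161-fold higher in Cloudman S91. The label DBA does not give the substrain of Cloudman S91. The genome named by the submitters is C57BL/6J sequence, and how far strain alleles changed which reads were assigned to which class I gene was not tested.

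All 8 Q region genes were higher in 4T1 by the size rule in both comparisons with a melanoma line. H2-Q4 was the only one listed in B16-F1, at 10.83, with 25.7 in Cloudman S91 and 150 in 4T1, so 4T1 was 13.9-fold (11.9 to 16.3) and 5.84-fold (5.21 to 6.58) higher. H2-Q7 and H2-Q9, which encode Qa-2, a nonclassical molecule held by a lipid anchor, were at 33.1 and 8.78 in 4T1. In Cloudman S91, H2-Q7 was at 1.57 and H2-Q9 was not listed. H2-Q8 was at 1.80 in Cloudman S91 and 99.9 in 4T1, a 55.5-fold step (31.7 to 102). Its listed length differed 2.17-fold between those tables, and by counts scaled to the library total the step was 123-fold. H2-Q2 was at 1.76 and 32.3, H2-Q1 at 0.41 and 8.03, and H2-Q6 was listed in 4T1 alone, at 8.61. H2-Q10, known in mice as a secreted liver molecule, was at 4.99 in 4T1 and at 0.02 in Cloudman S91, under 1 count.

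The T and M region genes, whose products have specialised ligands, were mixed. H2-T23, which encodes Qa-1, the ligand of CD94/NKG2 receptors, stood at 14.7 in B16-F1, at 13.8 in Cloudman S91 and at 81.4 in 4T1. 4T1 was 5.52-fold above B16-F1 (4.68 to 6.55), and the ratio of the melanoma lines had an interval that includes 1 (1.07, 0.845 to 1.35). H2-M3, which presents formylated peptides, was at 0.88, 0.69 and 14.9, 16.9-fold (9.22 to 34.4) and 21.5-fold (10.24 to 54.3) higher in 4T1. H2-T22, a target of some gamma-delta T cells, went the other way, at 10.5 in B16-F1, at 5.31 in Cloudman S91 and at 4.34 in 4T1. Its largest step, 2.43-fold (1.81 to 3.27), was under the size rule. That order held for the single row only. The summed FPKM of H2-T9, H2-T10 and H2-T22, all with non-whole counts, was 10.75, 7.78 and 23.6. The sum was thus highest in 4T1, 2.20-fold above B16-F1 (1.83 to 2.66). How reads were split between these rows was not tested. H2-T9 was at 0.14, 1.55 and 18.4, with only about 2 counts in B16-F1, and the pseudogene H2-T-ps was unlisted in B16-F1 and at 2.46 and 11.2 in the other lines. H2-M11 was the 1 member higher in Cloudman S91 than in both others, at 3.15 from 69 counts, against 1 count in B16-F1 and none listed in 4T1, where the bound is at least 27.8-fold. It is the only heavy chain member that reached the size rule against 4T1 in that direction.

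Summed over the 22 heavy chain members, the FPKM was 97.2 in B16-F1, against 232 in Cloudman S91 and 1638 in 4T1. The sum in 4T1 was 16.8-fold above B16-F1 (15.96 to 17.8) and 7.05-fold above Cloudman S91 (6.77 to 7.34), and Cloudman S91 was 2.39-fold above B16-F1 (2.24 to 2.55). By expected counts scaled to the library total, the sum in 4T1 was 15.5-fold above B16-F1 and 6.94-fold above Cloudman S91. The count was not a whole number (beyond 0.005) in at least 1 table for 17 of the 22 heavy chains, against 6 of the other 24 members. Left to members whose counts were whole in every table where they are listed, a choice made after seeing the data, 8 of 15 were higher in 4T1 than in B16-F1 (7.38% of all genes) and 7 of 16 than in Cloudman S91 (7.91%).

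Another pair of rows, chosen after their values were seen, carry class I text in the files' descriptions without an H2- symbol, and they weigh on the sum. Gm11127 (chr17:36055816-36058371) stood at 119 in B16-F1, at 299 in Cloudman S91 and at 389 in 4T1, and in B16-F1 it was above the sum of all 22 members. It was 3.28-fold higher in 4T1 than in B16-F1 (3.08 to 3.48) and 1.30-fold higher than in Cloudman S91 (1.24 to 1.36), both under the size rule. LOC547349 was not listed in B16-F1 and stood at 3.57 and 65.4 in the others. With both rows added, the sums became 216, 535 and 2092, the step from B16-F1 to 4T1 was 9.68-fold and that from Cloudman S91 to 4T1 3.91-fold. Gm11127 then made up 55.0%, 55.9% and 18.6% of the class I sum.

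**Figure D3:**
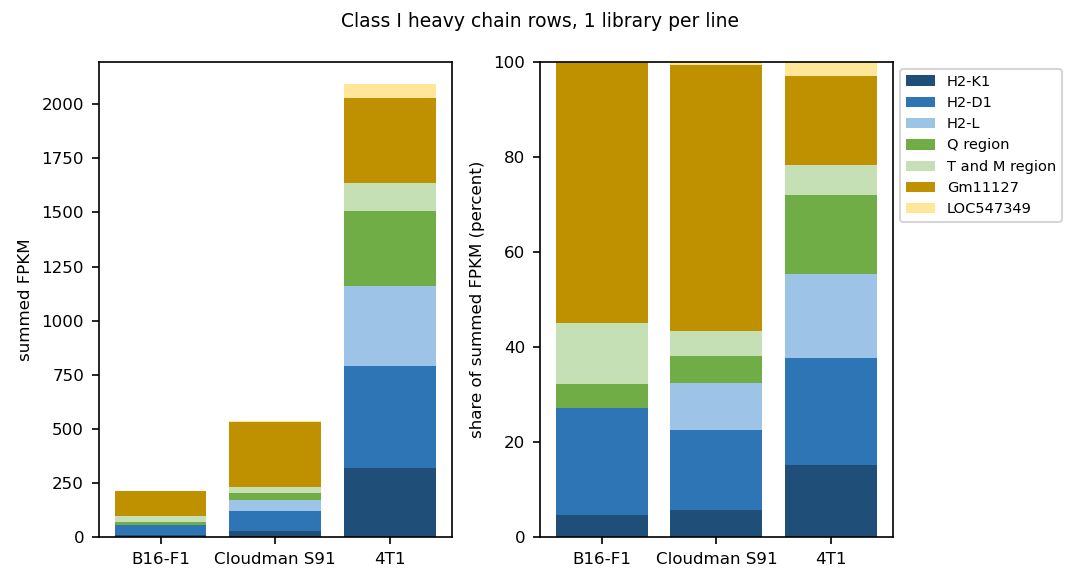
Summed FPKM of class I heavy chain rows in each line (left) and each gene's share of that sum in percent (right), with Gm11127 and LOC547349 included. The sums are 216, 535 and 2092, and Gm11127 makes up 55.0% and 55.9% of the bars of the melanoma lines.

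Transcripts in the reference annotation show how far such rows share letters. Of all stretches of 50 bases in the annotated transcripts, 93.9% of those of H2-Q9 and 87.7% of those of H2-Q7 also occurred in another of the 18 class I genes with a match, each mainly in the other. The share was 31.3% for H2-Q6, 11.98% for H2-D1, 11.1% for Gm11127, 8.79% for H2-K1 and 0.576% for H2-M3. Of the 24 class I rows, H2-L, H2-Q8, H2-T9, H2-T10, H2-T-ps and LOC547349 had no matched transcript. Letters shared with them are not counted, so these shares are lower limits. Single values of H2-Q7 and H2-Q9 are therefore uncertain, while those of H2-M3 rest on letters that these transcripts hardly share. For H2-M11 the matched transcript had 1006 bases, against listed lengths of 3275 in B16-F1 and 3000 in Cloudman S91. Much of the listed H2-M11 length was thus not checked for shared letters. How uncertain the values of the other class I rows are was not tested.

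**Figure D4:**
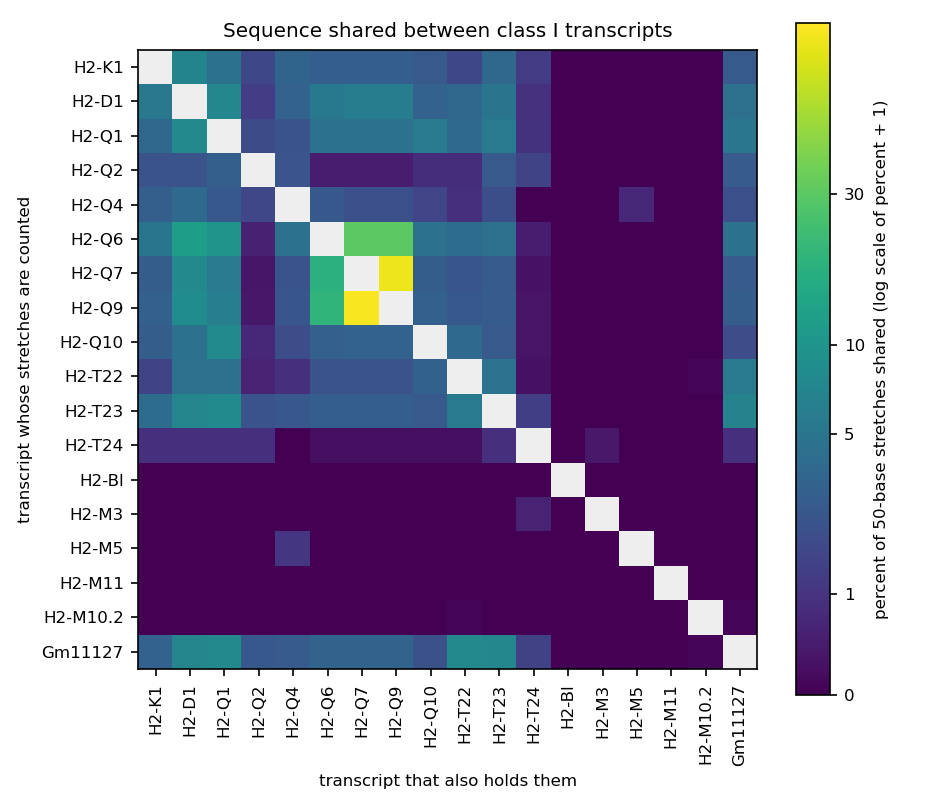
Percent of the 50-base stretches of each of the 18 class I genes with a matched transcript (vertical axis) that also occur in each other one (horizontal axis), on a logarithmic scale of the percent plus 1, in C57BL/6J sequence. H2-Q7 and H2-Q9 stand out, and the M region genes share almost nothing with the rest.

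B2m, the light chain of every class I molecule, followed the heavy chains with smaller steps. It stood at FPKM 215 in B16-F1 (205 to 226), 278 in Cloudman S91 (265 to 292) and 1168 in 4T1. The 3 levels did not overlap, and 4T1 was 5.42-fold above B16-F1 (5.14 to 5.73) and 4.20-fold above Cloudman S91 (3.98 to 4.43). The summed heavy chain FPKM was 0.451 of the B2m FPKM in B16-F1, against 0.836 in Cloudman S91 and 1.40 in 4T1. With Gm11127 and LOC547349 in the sum these ratios became 1.003, 1.93 and 1.79, so the order of Cloudman S91 and 4T1 turned.

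In peptide transport and loading, Tap2, one chain of the TAP transporter (chr17:34204479-34216321), had the largest fold in both pairs with B16-F1. It stood at 0.86 in B16-F1 from 19 counts, 7.80 in Cloudman S91 and 50.9 in 4T1. 4T1 was 59.2-fold above B16-F1 (37.7 to 98.6) and 6.52-fold above Cloudman S91 (5.47 to 7.83), and the melanoma lines differed 9.07-fold (5.60 to 15.5). Its partner chain Tap1 (chr17:34187556-34197225) moved less, at 1.17, 2.14 and 9.11, so that the level of Tap2 was 0.735, 3.64 and 5.59 of that of Tap1. Tap1 was 7.79-fold higher in 4T1 than in B16-F1 (5.34 to 11.7), and its 4.26-fold step from Cloudman S91 stayed under the size rule. Tapbp, or tapasin, which bridges TAP and class I, was at 5.74, 13.2 and 76.3, 13.3-fold (11.3 to 15.7) and 5.80-fold (5.14 to 6.59) higher in 4T1. Tapbpl, a peptide editor related to tapasin, was at 3.72, 2.03 and 15.3, and passed the size rule against Cloudman S91 (7.52-fold, 5.10 to 11.1) but not against B16-F1. Erap1, the aminopeptidase that trims peptides in the endoplasmic reticulum, differed least of these, at 7.12, 5.83 and 8.63. Its listed length differed 1.46-fold, and by scaled counts 4T1 was 1.77-fold above B16-F1 and 1.90-fold above Cloudman S91.

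All 3 inducible proteasome subunits were higher in 4T1 than in either melanoma line by the size rule, and Psmb8 and Psmb9 had at most 10 counts in either melanoma line. Psmb8 (chr17:34198195-34201454) was not listed in B16-F1 and stood at 1.15 in Cloudman S91 from 10 counts and 69.3 in 4T1 from 718. It was at least 243-fold higher in 4T1 than in B16-F1 and 60.2-fold higher than in Cloudman S91 (32.6 to 126). Psmb9 (chr17:34182030-34187330), which shares its start region with Tap1, was likewise unlisted in B16-F1 and at 0.72 and 13.0 in the others. Psmb10 was at 9.96, 11.2 and 61.7, 6.19-fold (5.05 to 7.64) and 5.50-fold (4.46 to 6.85) higher in 4T1. Their standard partners Psmb5, Psmb6 and Psmb7 were at 162, 134 and 202 in B16-F1 and at 160, 145 and 185 in 4T1, and were lower in Cloudman S91, at 106, 50.1 and 113. Psmb8 was 43.2% of the FPKM of Psmb5 in 4T1 and 1.08% in Cloudman S91. The same share was 8.94% and 1.44% for Psmb9 and Psmb6, and 33.3% and 9.94% for Psmb10 and Psmb7, with 4.94% for the last pair in B16-F1.

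**Figure D5:**
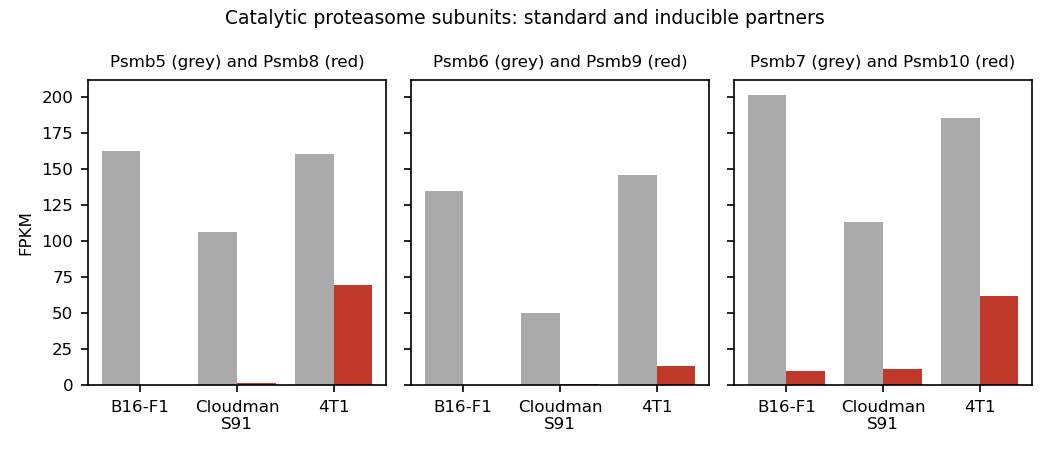
FPKM of 3 standard catalytic proteasome subunits (grey) and of the inducible subunits that replace them (red) in each line, 1 library per line. The red bars of Psmb8 and Psmb9 are at or near 0 in both melanoma lines and reach 69.3 and 13.0 in 4T1.

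The proteasome activators split by type. Psme1 and Psme2, the chains of the interferon-inducible activator PA28, were both higher in 4T1, with Psme1 at 43.7, 48.9 and 118 and Psme2 at 28.9, 40.5 and 137. Psme2 passed the size rule against B16-F1 (4.74-fold, 4.10 to 5.50), and Psme1 passed it in neither pair. Psme3, the nuclear activator that is not an interferon target, was at 109, 64.4 and 67.4, highest in B16-F1 and with an interval that includes 1 between Cloudman S91 and 4T1 (1.05, 0.969 to 1.13).

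Among the regulators, Nlrc5, the class I transactivator (chr8:94434335-94527272), was the member that set 4T1 apart. It stood at 0.11 in B16-F1 from 7 counts, 0.43 in Cloudman S91 from 22 counts and 13.6 in 4T1. 4T1 was 124-fold above B16-F1 (59.9 to 309) and 31.7-fold above Cloudman S91 (20.8 to 50.8). The RFX subunits, which bind class I and class II promoters, passed the size rule in no pair: Rfx5 was at 3.09, 3.26 and 7.88. Rfxap was at 10.7, 10.18 and 16.4, and Rfxank at 8.25, 6.00 and 10.3. Ciita, the class II transactivator, was unlisted in B16-F1 and had 1 count in each of the other lines.

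Of the class II set, only Cd74 and H2-DMa passed the size rule. Cd74, the invariant chain, stood at 47.6 in 4T1 from 502 counts, had 1 count in B16-F1 and was unlisted in Cloudman S91, where the bound is at least 138-fold. Against B16-F1 the FPKM ratio was 529, with a wide counting interval of 94.6 to 20944. H2-DMa, a chain of the peptide editor H2-M, was at 0.34, 1.26 and 8.23, so 4T1 was 24.2-fold (10.22 to 75.4) and 6.53-fold (3.87 to 11.9) higher. Its listed length differed 1.78-fold, and by scaled counts these steps were 43.2-fold and 11.7-fold. The class II chains themselves were near the limit: H2-Ab1, the beta chain of I-A, had 11 counts in 4T1 (FPKM 1.09) and was unlisted in the others, and H2-Eb1 had at most 1 count in any line. H2-Oa, a chain of the H2-M inhibitor, had 1 count in 4T1, and H2-DMb1, a partner chain of H2-DMa, was listed in B16-F1 alone, with 5 counts. H2-Aa was listed in no table.

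Markers of leukocytes and antigen presenting cells were looked up beside the class II values. Of 21 such genes, 11, 7 and 7 were listed in B16-F1, Cloudman S91 and 4T1, with summed FPKM of 4.27, 125 and 37.1. The sum in Cloudman S91 was almost all Fcer1g, at 122, and that in 4T1 was mostly Lcp1, at 24.7, with Cd14 at 8.08 and Cd40 at 3.71. In 4T1, Ptprc, the pan-leukocyte gene, and Laptm5, Cd52, Cd53, Itgam, Itgax, Tyrobp, Ms4a1 and Cd3e were not listed. The part of cells that carry Lcp1, Cd14 or Cd40 in the class II values was not tested. H2-Ke6, a hydroxysteroid dehydrogenase that has an H2- symbol from its position and no role in presentation, was at 12.8, 6.41 and 18.6 and passed the size rule in no pair.

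Further genes of the pathway were looked up in the same way. Of 58 genes of folding, proteasome, peptide trimming, class II processing, class I-like molecules and signalling, 50 were compared between B16-F1 and 4T1. Of these, 5 were higher in 4T1 (10.0%; 7.43% of all genes) and 3 in B16-F1 (6.00%; 6.31% of all genes), with a median of 0.06. Against Cloudman S91, 6 of 50 were higher in 4T1 (12%; 8.01% of all genes) and 2 in Cloudman S91 (4.00%; 7.47% of all genes), with a median of -0.37. These shares lay near those of all genes. Irf1, an interferon-induced transcription factor that acts on class I promoters, was at 4.99 in B16-F1, at 4.18 in Cloudman S91 and at 54.3 in 4T1, and Irf8 was listed in 4T1 alone, at 3. Rela, a subunit of NF-kappaB, was at 23.6, 18.6 and 99.1, and Nfkb1 at 15.8, 3.11 and 35.8.

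Between the melanoma lines, 2 of 48 pathway genes were higher in B16-F1 (4.17%; 2.33% of all genes) and none in Cloudman S91 (3.19% of all genes). These were Nfkb1 and Ifngr1, the ligand-binding chain of the interferon-gamma receptor, which stood at 6.36 in B16-F1, 0.13 in Cloudman S91 from 2 counts, and 22.4 in 4T1. The other receptor chain, Ifngr2, was at 20.1, 16.7 and 22.6. Chaperones of the endoplasmic reticulum were mixed. Calr, which helps fold class I, was at 816, 795 and 279 and Canx at 266, 143 and 84.1, both lowest in 4T1, while Hspa5 was at 531, 460 and 938 and Ganab at 72.4, 48.4 and 102, both highest there. Pdia4, a disulfide isomerase of the endoplasmic reticulum, was at 208, 118 and 40.8, and Lnpep, a peptidase of endosomes, at 11.2, 13.8 and 1.72. Ctsl, an endosomal protease, was at 41.7, 48.4 and 317.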

How the data were processed

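RNA of 3 lines was sequenced, 1 library each, on an Illumina instrument, after poly(A) enrichment, per the labels' protocols. The submitters' processing notes name HISAT, StringTie and mm10, with no versions. The counting program is not stated there. The deposited tables hold expected counts (estimated reads per gene, not normalised) and FPKM, which the authors scaled per kilobase and to the library total, per the file headers. They also hold the listed gene lengths. Between 88.1% and 88.9% of the expected counts were whole within 0.005.

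Rows with no symbol, with 2.24% to 4.32% of the counts, were left out. Differences were computed as log2(FPKM + 1), with Python 3.11.15, numpy 2.4.6, pandas 2.3.3 and scipy 1.17.1, and the calling step was tested on simulated data. Intervals are exact 95% Poisson for a level and conditional binomial for a ratio, from rounded expected counts; they cover counting error only. Against an unlisted gene, a bound uses 3 counts in that library. With 1 library per line no test or p-value was computed. Every member at FPKM 1 or more is given in each line. Positions and promoter windows are RefSeq GRCm38.p6, and shared stretches come from GENCODE vM21 transcripts. Members, lists and rules were chosen with earlier results of these data known. The alternatives were other pseudocounts, filters, scalings and size rules, and classical heavy chains as a single summed feature. Protein identity between members was planned and is not analysed here. Some genes of the lists are not reported here.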

Additional observations from a re-analysis of the deposited data

How the results depend on the processing

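No paired analysis was possible because each line has 1 library and the labels carry no replicate numbers, and no library could be left out. Of 84 counts of members under the alternatives, 69 stayed within 1.5 times the value reported and 15 did not, and no median changed sign. Between B16-F1 and 4T1, the 26 members higher in 4T1 became 16 with a pseudocount of 5 (3.43% of all genes) and 8 of 15 without members of non-whole counts (7.38%), and the 0 higher in B16-F1 became 1 with a 2-fold rule (18.5%). Between Cloudman S91 and 4T1, the 24 higher in 4T1 became 14 with a pseudocount of 5 (3.43%), 11 with an 8-fold rule (3.88%) and 7 of 16 without members of non-whole counts (7.91%). The 1 higher in Cloudman S91 became 0 with a pseudocount of 5 (2.81%), an FPKM minimum of 5 (8.16%) or an 8-fold rule (3.68%). Between the melanoma lines, the 3 of 28 higher in Cloudman S91 became 9 with a pseudocount of 0.1 (5.96% of all genes), 1 with a pseudocount of 5 (1.02%), 7 of 32 under TPM (4.45%), 9 of 35 under TPM without the 50 most abundant genes (5.22%), 12 with a 2-fold rule (9.11%) and 1 with an 8-fold rule (1.46%). A larger pseudocount shrinks low genes by construction; the cause of the other changes was not tested. All 54 called differences kept their sign under 5 other scalings, and 49 stayed past 4-fold under each of them; the exceptions were Psme2 between B16-F1 and 4T1, and B2m, H2-D1, H2-DMa and Psmb10 between Cloudman S91 and 4T1. Rescaling to TPM moved the median of all genes to 0.38 for B16-F1 minus 4T1, 0.31 for Cloudman S91 minus 4T1 and 0.06 for B16-F1 minus Cloudman S91. The alternatives without members of non-whole counts and with Gm11127 and LOC547349 as members were chosen after seeing the data. Depth limits the genes with few counts: Ciita, H2-Eb1 and H2-Oa cannot be ordered between lines.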

Other observations

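Molecules with a class I-like fold outside the MHC were mixed, some lower and some higher in 4T1. Mr1, which presents vitamin B metabolites to mucosal-associated invariant T cells, was at FPKM 8.43 in B16-F1, at 10.6 in Cloudman S91 and at 2.37 in 4T1. Hfe, which takes part in iron control, was at 11.3, 3.31 and 2.29. Fcgrt, the neonatal Fc receptor, was at 3.26 and 4.40 in the melanoma lines and was not listed in 4T1, and passed the size rule against 4T1 in both pairs. Cd1d1, which presents lipids to natural killer T cells, went the other way, at 0.31, unlisted and 2.19. Ulbp1, a ligand of the activating receptor NKG2D, was at 0.75, 3.51 and 6.42, and passed the size rule between B16-F1 and 4T1 (8.56-fold higher in 4T1, 4.69 to 17.1 from counting error), while Raet1e, H60b and H60c did not reach FPKM 1 in any line. With 1 library per line none of these differences has a replicate check.

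In class II processing, Ifi30, the lysosomal thiol reductase, was at 77.2, 50 and 64.8 and Lgmn, an asparaginyl endopeptidase, at 35.6, 36.1 and 63.1, in lines where H2-Ab1 had at most 11 counts. Ctss, the protease that trims the invariant chain in antigen presenting cells, was listed in no table.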
